A study of Homo sapiens with 4 samples.

Results

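The 10 genes described here encode components of microfibrils and elastic fibres: MFAP2 and MFAP5, FBN1 and FBN2, ELN, LOX, LOXL1 and LOXL2, LTBP1 and EMILIN1. They were chosen by name among 60623 genes in the deposited table, and with the rise of MFAP2 in these libraries already known, so their differences between the groups are given as a description. All 10 were found. RNA was sequenced from T24 cells, which derive from a human bladder carcinoma and were grown in RPMI with 10% FCS. There were 2 control libraries and 2 libraries from cells that overexpressed CBX7, written CBX7 libraries below. CBX7 is a chromobox protein that reads methylated histone H3 in a Polycomb repressive complex. According to the study's methods, the full-length coding sequence was cloned into a vector with a FLAG tag, and the sources used here do not say what vector the control cells carried or whether either line was a single clone. They also do not say whether the 2 libraries of a group came from separate cultures. The spread between libraries, on which the SDs and standard errors below rest, may therefore be technical. The standard errors come from fits that also draw on the spread of other genes.

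Elastic fibres are built from a core of cross-linked elastin on a scaffold of microfibrils. Fibrillins are the backbone of the microfibril, and MFAP2 and MFAP5 are small glycoproteins that attach to it. Lysyl oxidases cross-link elastin and collagens, several latent TGF-beta binding proteins tether latent TGF-beta to the matrix, and EMILIN1 sits at the interface of elastin and microfibril. In tissue most of these genes are typical of fibroblasts and smooth muscle cells. T24 cells are epithelial in origin.

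The promoter sequences of MFAP2 and LOXL1, the 2 genes with the highest log2 fold changes among the 7 with enough counts to be tested, and of FBN1, the fibrillin of these cells, are shown because CpG-rich promoters are known as places where Polycomb complexes bind. They are RefSeq sequences on GRCh38.p14, each the 250 bases before an annotated start site, written 5′ to 3′ on the strand of the gene, with every CG in capitals. MFAP2 has a pair of annotated starts. The distal window spans chr1:16981584-16981833, the proximal one chr1:16980621-16980870, the LOXL1 window chr15:73926212-73926461 and the FBN1 window chr15:48644971-48645220.
MFAP2 distal: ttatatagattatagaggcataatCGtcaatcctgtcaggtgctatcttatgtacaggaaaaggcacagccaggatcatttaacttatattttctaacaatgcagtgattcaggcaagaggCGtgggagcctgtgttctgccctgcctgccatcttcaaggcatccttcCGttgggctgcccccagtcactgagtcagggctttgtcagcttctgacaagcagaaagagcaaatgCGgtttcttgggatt
MFAP2 proximal: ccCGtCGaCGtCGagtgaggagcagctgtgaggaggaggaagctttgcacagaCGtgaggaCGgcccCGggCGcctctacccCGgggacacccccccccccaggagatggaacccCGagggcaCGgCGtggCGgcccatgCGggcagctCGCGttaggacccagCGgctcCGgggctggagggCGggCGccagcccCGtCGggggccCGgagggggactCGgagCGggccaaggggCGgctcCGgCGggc
LOXL1: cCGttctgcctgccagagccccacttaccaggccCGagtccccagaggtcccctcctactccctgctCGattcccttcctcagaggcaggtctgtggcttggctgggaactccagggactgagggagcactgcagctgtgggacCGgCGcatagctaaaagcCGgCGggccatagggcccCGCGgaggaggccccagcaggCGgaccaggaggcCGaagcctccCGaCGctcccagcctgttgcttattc
FBN1: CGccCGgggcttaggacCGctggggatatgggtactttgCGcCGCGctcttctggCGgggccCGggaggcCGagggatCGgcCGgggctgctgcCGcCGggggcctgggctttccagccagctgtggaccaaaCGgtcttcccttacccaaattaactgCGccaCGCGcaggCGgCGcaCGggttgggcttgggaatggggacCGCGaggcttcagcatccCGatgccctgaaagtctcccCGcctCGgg

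The proximal MFAP2 window held 28 CG, more than 84.1% of the 35116 promoter windows in the RefSeq table, with a GC content of 76.4%. The distal MFAP2 window held 4 CG and had a GC content of 46.8%, and only 29.3% of windows had fewer. LOXL1 stood near the middle, with 13 CG against a median of 11 over all windows, and FBN1 held 25. Both strands were searched for 4 short motifs. TGANTCA, which reads the same on both strands, was found in the distal MFAP2 window and in 6.57% of all windows. GGGCGG was found on one of its strands in the proximal MFAP2 window and in 42.6% of all windows, and CAGAC in the proximal MFAP2 and the LOXL1 windows and in 38.0% of all. TATAAA, present in 10.7% of windows, was in none of the 4 windows printed. The deposited values are per gene and do not say which start was used. Of the 10 genes, 6 had a window in the table, and MFAP5, ELN, LOXL2 and EMILIN1 are named only.

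The deposited counts summed to between 20800910 and 25135488 per library. CBX7 had 261.4 and 203.3 counts in the control libraries and 42852 and 35641 in the CBX7 libraries, which matched the labels, although the counts do not separate introduced from endogenous transcript. CBX7 replicate 1 stood apart from the other libraries by gene length. Over all tested genes averaging 10 counts or more, the CBX7 library numbered 1 had a median log2 ratio to the control of the same number of 0.31 for 2699 genes under 1500 bases and -0.34 for 2031 genes over 6000 bases, against -0.02 and 0 for the libraries numbered 2. Within groups, the same medians were 0.42 and -0.49 for CBX7 replicate 1 over replicate 2 and 0.07 and -0.15 for control replicate 1 over replicate 2. Values without CBX7 replicate 1 are given beside the main results below, in fits that assume that the lone CBX7 library varies like the control libraries. Fits without a control library likewise take their spread from the CBX7 libraries. The cells expressed keratins of urothelium, with KRT7 between 1197 and 1465 TPM and KRT18 between 1092 and 1293 TPM. Of 15 urothelial markers 6 were at 1 TPM or more in every library, and the basal keratins KRT5 and KRT14 were at 0 in all 4. The 4 uroplakins, markers of differentiated urothelium, did not pass 0.27 TPM.

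The 10 genes covered a wide range of abundance. TPM (a relative transcript abundance scaled by length, on which genes can be compared) averaged over 10 in the 2 groups together for LOXL2 alone, and MFAP2 passed 10 TPM in the CBX7 libraries alone. LOXL2 was by far the most abundant. In control cells FBN1 at 8.18 ± 0.863 TPM and LOX at 7.27 ± 0.255 TPM followed (SD, n = 2), a difference little larger than the SD of FBN1, and MFAP2 came next. In the CBX7 libraries MFAP2 stood above both in each library, and FBN1 at 6.63 ± 2.29 TPM and LOX at 6.13 ± 2.60 TPM overlapped. LOXL1, EMILIN1 and LTBP1 lay between 0.12 and 1.45 TPM. LTBP1 and LOXL1 overlapped in the controls, while LOXL1 was above EMILIN1 and LTBP1 in both CBX7 libraries, and FBN2, MFAP5 and ELN were at the limit of detection. A count of 0 in a library allows up to 3 counts, which is 0.119 to 0.144 CPM (counts scaled to the size of the library) and covers counting error only.

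**Figure D1:**
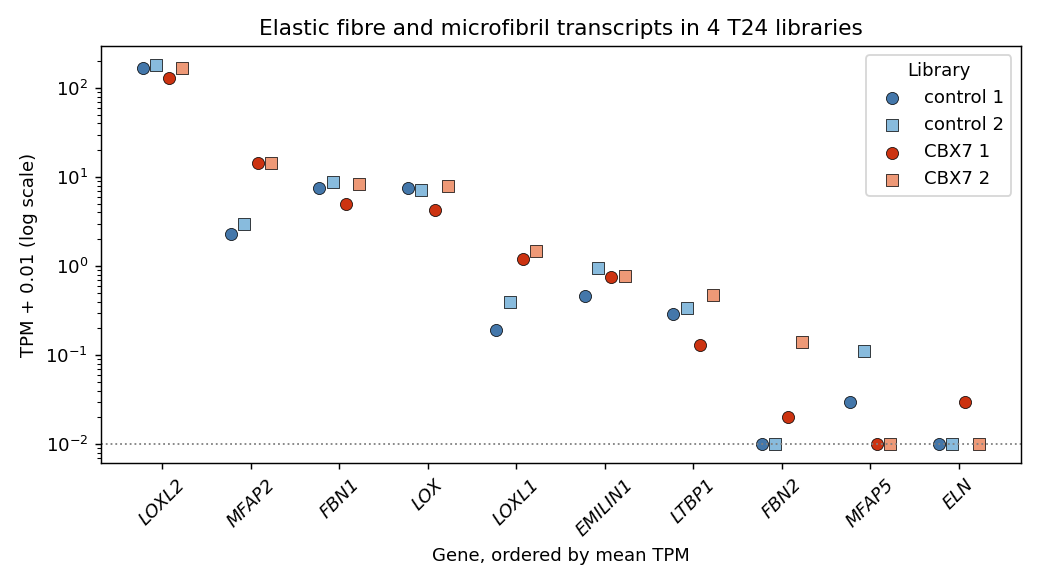
TPM of each of the 10 genes on a log scale, with 0.01 added so that 0 can be drawn (dotted line), in control replicates 1 and 2 (blue circle and square) and CBX7 replicates 1 and 2 (red circle and square). MFAP2 lies at 2.3 and 2.96 TPM in the controls and at 14.5 and 14.42 TPM in the CBX7 libraries, while LOXL2 lies over 130 TPM in all 4 libraries.

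MFAP2 (ENSG00000117122, chr1:16974502-16980835, minus strand, GRCh38) encodes the microfibril-associated glycoprotein MAGP-1, which binds fibrillins and growth factors of the TGF-beta family. Its counts were 32 and 31 in control replicates 1 and 2 and 252 and 178 in CBX7 replicates 1 and 2. In TPM the levels were 2.3 and 2.96 in the controls and 14.5 and 14.42 in the CBX7 libraries, or 2.63 ± 0.467 against 14.5 ± 0.0566 (SD, n = 2). The groups did not overlap in counts, CPM or TPM. Among detected genes it stood at the 45.7 and 46.7 percentile of TPM in the controls and at the 71.4 and 66.7 percentile in the CBX7 libraries. Its mean percentile over the 4 libraries was 57.6 among detected genes and 32.3 among genes of at least 1 TPM. After TMM scaling the level was 1.41 ± 0.0958 CPM in the controls and 9.20 ± 1.75 CPM in the CBX7 libraries (SD, n = 2), a 6.52-fold difference with a log2 value of 2.71 ± 0.25 (standard error, SE). More expressing cells and more RNA per cell cannot be told apart in such bulk samples. By log2 fold change it ranked 14 of the 14862 genes tested. Without CBX7 replicate 1 the log2 fold change was 2.50, and after correction of each library for its trend with gene length it was 2.55. The antisense gene AL049569.1, which overlaps MFAP2, had no count in any library.

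MFAP5 (ENSG00000197614, chr12:8637346-8662888, minus strand) encodes MAGP-2, the other member of the family. It had 1 and 4 counts in the control libraries and 0 in both CBX7 libraries. Over the group, 5 control counts amounted to 0.113 CPM and 0 counts allowed up to 0.0637 CPM. The ratio of these values, 1.77, takes the 5 control counts as exact and is no lower bound on a fall. MFAP5 had too few counts to be tested. MFAP2 was the more abundant of the pair in all 4 libraries.

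FBN1 (ENSG00000166147, chr15:48408306-48645849, minus strand) encodes fibrillin-1, the main structural protein of microfibrils. Its counts were 774 and 890 in the controls and 500 and 819 in the CBX7 libraries. TPM was 7.57 and 8.79 in the controls and 5.01 and 8.25 in the CBX7 libraries, and the groups overlapped. The low value was that of CBX7 replicate 1. The fitted log2 fold change was -0.38 ± 0.30 (SE), and -0.022 without CBX7 replicate 1. With a length of 11756 bases FBN1 is the longest of the 10 genes, and after the correction for gene length the value was -0.22 ± 0.115 (SE).

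FBN2 (ENSG00000138829, chr5:128257909-128659185, minus strand) encodes fibrillin-2, which is best known from developing tissues. It had 0 counts in both control libraries and 2 and 8 in CBX7 replicates 1 and 2. The 10 CBX7 counts amounted to 0.212 CPM against a limit of 0.0675 CPM over the control group. The ratio of these values, 3.14, takes the 10 counts as exact and is no lower bound on a rise. FBN2 had too few counts to be tested, and 8 of the 10 counts came from 1 library. ELN (ENSG00000049540, chr7:74027789-74069907, plus strand), which encodes tropoelastin, had 1 count in CBX7 replicate 1 and 0 in the other 3 libraries, and no fold is given. Its antisense neighbour ELN-AS1 had 3, 0, 4 and 0 counts in the same order of libraries as above. Elastin transcript was thus not detectable above the limit in either group at this depth.

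LOX (ENSG00000113083, chr5:122063195-122078360, minus strand) encodes the lysyl oxidase that cross-links elastin and fibrillar collagens. Its counts were 517 and 379 in the controls and 341.9 and 437 in the CBX7 libraries. TPM was 7.45 and 7.09 in the controls and 4.3 and 7.97 in the CBX7 libraries, and the groups overlapped, with the lowest and the highest value both in the CBX7 group. On the log2 scale the fitted change was -0.24 ± 0.21 (SE), and -0.0203 without CBX7 replicate 1. LOX overlaps SRFBP1 on the opposite strand, whose counts lay between 570 and 611 in all 4 libraries. The library kit and the counting are not stated to use strand.

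LOXL1 (ENSG00000129038, chr15:73925989-73952137, plus strand) encodes the lysyl oxidase known for the maintenance of elastic fibres. Its counts were 7 and 5 in the controls and 26 and 15 in the CBX7 libraries, with TPM of 0.18 and 0.38 against 1.19 and 1.45. The groups did not overlap in either unit, but TPM and counts ordered the libraries of a group differently. The fit gave a log2 fold change of 1.70 ± 0.48 (SE), or 3.24-fold, and 1.32 ± 0.809 (SE) without CBX7 replicate 1. LOXL1 passed the filter on low counts only through the CBX7 group, where it was higher, and a filter of at least 10 counts in every library removed it. The antisense gene LOXL1-AS1 (ENSG00000261801), named here after its values were seen, had 27 and 34.4 counts in the controls and 87 and 86 in the CBX7 libraries. Its log2 fold change was 1.44 ± 0.29 (SE, adjusted p = 0.443, edgeR), and 1.49 without CBX7 replicate 1. As strand is not stated, reads of LOXL1 and of its antisense partner cannot be told apart where they overlap.

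LOXL2 (ENSG00000134013, chr8:23297189-23425328, minus strand) encodes a lysyl oxidase with scavenger receptor domains that cross-links basement membrane collagen. It was the most abundant of the 10 genes in every library. Its counts were 10127 and 8919 in the controls and 9343 and 8858 in the CBX7 libraries. TPM was 168.8 and 181.9 in the controls and 130.5 and 169.8 in the CBX7 libraries, and these overlapped. CPM was 424 and 425 against 387 and 396, and these did not. The log2 fold change was -0.12 ± 0.12 (SE), and -0.0944 without CBX7 replicate 1, so the difference was no larger than its error in this fit. LOXL2 overlaps ENTPD4 on the same strand, whose counts lay between 912.2 and 1123. Per unit of LOX there was between 21.3 and 30.4 times as much LOXL2 in TPM, with the highest and the lowest value both in the CBX7 group.

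LTBP1 (ENSG00000049323, chr2:32946972-33399509, plus strand) encodes the latent TGF-beta binding protein that anchors latent TGF-beta to fibrillin microfibrils. Its counts were 21 and 17 in the controls and 13 and 21 in the CBX7 libraries. TPM was 0.28 and 0.33 against 0.12 and 0.46, and both extremes lay in the CBX7 group. Fitted on the log2 scale, the difference was -0.20 ± 0.42 (SE), and its sign changed to 0.16 without CBX7 replicate 1.

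EMILIN1 (ENSG00000138080, chr2:27078567-27086408, plus strand) encodes the elastin microfibril interface protein, which also restrains the maturation of TGF-beta. Its counts were 19 and 21 in the controls and 33 and 19 in the CBX7 libraries. TPM was 0.45 and 0.95 against 0.75 and 0.76, so the CBX7 libraries lay between the control libraries. The log2 ratio from the fit was 0.31 ± 0.40 (SE), and its sign changed to -0.0689 without CBX7 replicate 1.

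**Figure D2:**
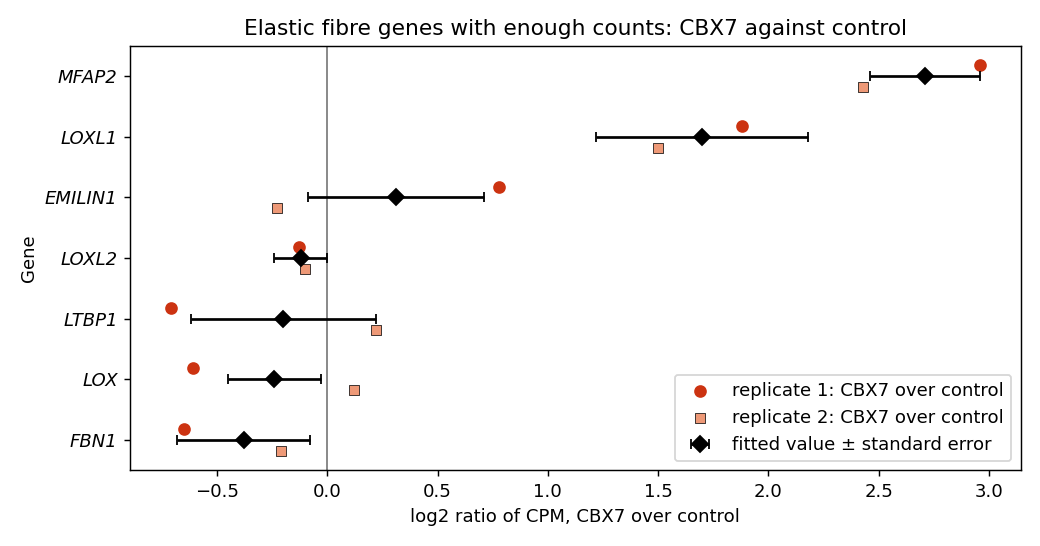
log2 ratio of CPM, CBX7 over control, for the 7 genes with enough counts. Diamonds and bars give the fitted value ± standard error from edgeR, and circles and squares the ratio of the libraries numbered 1 and 2. MFAP2, at 2.71, and LOXL1, at 1.70, lie to the right of 0 with both ratios, LOXL2 lies at -0.12, and LTBP1, LOX and EMILIN1 have a ratio on each side of 0.

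Of the 10 genes, 7 passed the filter on low counts, and 3 of these were higher and 4 lower in the CBX7 libraries. Their median log2 fold change was -0.12, against 0.0017 over all 14862 genes tested. By the quasi-likelihood test of edgeR with Benjamini-Hochberg adjustment, none of the 7 had an adjusted p under 0.05, where 3 of all genes, or 0.0202%, did. CBX7 itself was among those 3 (adjusted p = 0.000584, edgeR). At an unadjusted p under 0.05 MFAP2 and LOXL1 passed, with 4.74% of all genes. In DESeq2's Wald test MFAP2 passed the adjusted threshold, with 67 of all genes, or 0.451%. The 2 groups of libraries did not overlap in CPM for MFAP2, LOXL1 and LOXL2, and for 30.2% of all genes tested. These counts are a description and no support, since MFAP2 was chosen for its rise in this contrast and LOXL1 was kept by the filter only through the group in which it was higher. A single gene compared between 2 and 2 libraries cannot give an exact two-sided permutation p under 0.333.

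The makeup of the 10 transcripts differed between the groups. The summed TPM of the 10 genes was 187 and 203 in the controls and 156 and 203 in the CBX7 libraries, so the sum did not separate the groups. LOXL2 made up 90.2% and 89.8% of it in the controls and 83.4% and 83.5% in the CBX7 libraries. MFAP2 made up 1.23% and 1.46% in the controls and 9.27% and 7.09% in the CBX7 libraries. The 3 lysyl oxidases together held 94.3% and 93.5% of the sum in the controls and 87.0% and 88.2% in the CBX7 libraries, and the remaining 7 genes the rest. Set against the fibrillin it binds, there was 0.304 and 0.337 TPM of MFAP2 per TPM of FBN1 in the controls and 2.89 and 1.75 in the CBX7 libraries. The value 2.89 is from CBX7 replicate 1, in which short genes ran high and long genes low. MFAP2 has 1045 bases and FBN1 11756, and TPM does not remove such a trend. With LOXL2 left out, the sum was 18.2 and 20.6 TPM in the controls and 25.9 and 33.4 TPM in the CBX7 libraries, of which MFAP2 was 12.6% and 14.4% and then 56.0% and 43.1%. These shares follow from the MFAP2 values and are no separate evidence of them.

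**Figure D3:**
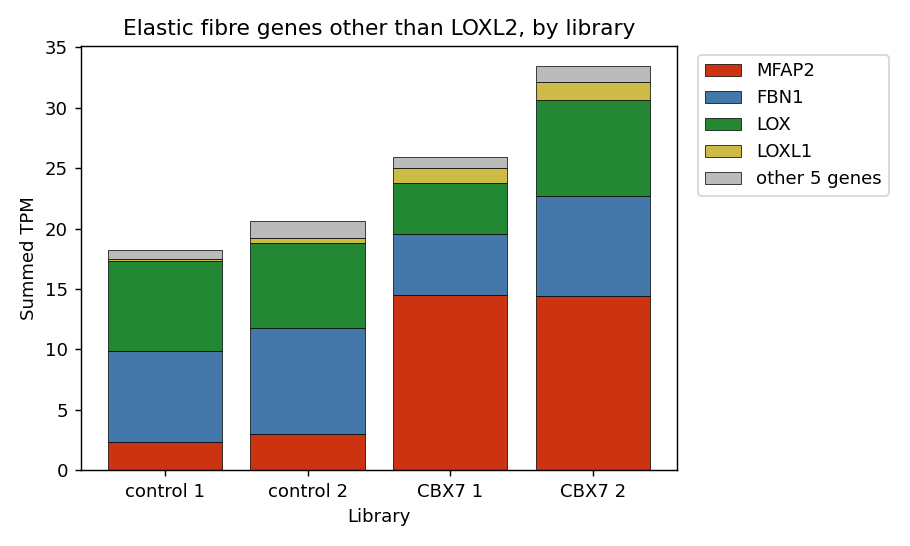
Stacked bars of the TPM of MFAP2, FBN1, LOX, LOXL1 and the other 5 genes (MFAP5, FBN2, ELN, LTBP1 and EMILIN1) in each library, without LOXL2. The bars reach 18.2 and 20.6 TPM in the controls and 25.9 and 33.4 TPM in the CBX7 libraries, with MFAP2 the lowest segment.

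Another 43 genes of the pathway, listed by function, gave a wider view. Of these, 31 passed the filter, 14 of them higher and 17 lower in the CBX7 libraries, with a median log2 fold change of -0.03 and a range from -0.78 to 3.37. None passed the adjusted threshold of 0.05 by the quasi-likelihood test of edgeR. At an unadjusted p under 0.05 there were 6 of 31, beside 4.74% of all genes tested (509 of those 705 higher), and all 6 were higher: EFEMP1, FBLN1, LTBP4, ADAMTSL4, ADAMTSL5 and BGN, of which LTBP4, ADAMTSL4, ADAMTSL5 and BGN are named after their values were seen. With DESeq2's Wald test, EFEMP1 alone passed the adjusted threshold, beside 0.451% of all genes. Without CBX7 replicate 1, EFEMP1, FBLN1 and LTBP4 passed in edgeR, as did BGN, beside 2.59% of all genes. BGN was kept by the filter on low counts only through the CBX7 group, where it was higher, so its passing is no support. None of the 43 combined an average of 1 CPM or more with a 2-fold difference.

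EFEMP1, or fibulin-3, is an extracellular matrix protein of the fibulin family, and it was the most abundant fibulin. It had 95.5 and 99.22 TPM in the controls and 130.7 and 170.1 TPM in the CBX7 libraries. The fitted log2 fold change was 0.73 ± 0.12 (SE, adjusted p = 0.346, edgeR), and 0.77 without CBX7 replicate 1. FBLN1, or fibulin-1, is found in elastic fibres and basement membranes and had 57.53 and 59.01 TPM in the controls and 76.23 and 77.43 TPM in the CBX7 libraries. The log2 fold change of FBLN1 was 0.49 ± 0.14 (SE, adjusted p = 0.782, edgeR), and 0.37 without CBX7 replicate 1. Neither passed the adjusted edgeR threshold in the main fit of all 4 libraries. For both the groups did not overlap, as for 30.2% of all genes, while those of EFEMP2 and FBLN7 overlapped in CPM. EFEMP2, the fibulin that brings LOX to tropoelastin, had a log2 fold change of -0.03, and -0.24 without CBX7 replicate 1, and FBLN5, which binds elastin, had 5, 17, 3 and 5 counts in control 1, control 2, CBX7 1 and CBX7 2 and was not tested.

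The other latent TGF-beta binding proteins were far more abundant than LTBP1. LTBP2 lay between 23.46 and 44.52 TPM, LTBP3 between 34.06 and 39.7 TPM and LTBP4 between 33.62 and 45.31 TPM, while LTBP1 did not pass 0.46 TPM. Their log2 fold changes were -0.08, 0.07 and 0.33, with standard errors of 0.23, 0.14 and 0.13, and 0.21, 0.0252 and 0.39 without CBX7 replicate 1, which turned the sign of LTBP2. The remaining fibrillin, FBN3, was at 0 in all 4 libraries, so FBN1 was the one fibrillin with more than 10 counts in any library. The remaining lysyl oxidases LOXL3 and LOXL4 lay between 1.38 and 2.57 TPM, with log2 fold changes of 0.17 and -0.39, and 0.0474 and -0.24 without CBX7 replicate 1. The 3 TGF-beta ligands TGFB1, TGFB2 and TGFB3 had log2 fold changes of 0.34, -0.16 and 0.80, and 0.15, -0.0425 and 0.24 without CBX7 replicate 1. Of the 4 tested genes of the ADAMTS and ADAMTS-like family, several of which bind fibrillin-1, 2 were higher (ADAMTSL4 at 0.77 and ADAMTSL5 at 0.61) and 2 lower (THSD4 at -0.36 and ADAMTS6 at -0.22). Without CBX7 replicate 1 they were 0.80, 0.57, 0.0078 and -0.000756 in the same order.

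Integrins bind fibrillins and fibronectin at the cell surface. All 5 tested integrin subunits had negative log2 fold changes, from -0.78 for ITGB3 to -0.08 for ITGB5. In the edgeR test 0 of the 5 passed the adjusted or the unadjusted threshold, beside 0.0202% and 4.74% of all genes tested. Without CBX7 replicate 1, 4 of the 5 were lower. The log2 ratios of the libraries numbered 1 and 2 were -1.62 and -0.25 for ITGB3 and -0.72 and 0.05 for ITGAV, and the fitted values without that library were -0.24 and 0.18. ITGB1, the most abundant of the 43 genes, had 440.2 and 468.9 TPM in the controls and 267.1 and 419.2 TPM in the CBX7 libraries, a log2 fold change of -0.31 ± 0.15 (SE, adjusted p = 0.951, edgeR), and -0.17 without CBX7 replicate 1. ITGA5 had -0.10 ± 0.13 (SE), and -0.0648 without CBX7 replicate 1, from TPM between 58.85 and 64.99. CTSA, the protective protein of the elastin receptor complex, lay between 106.1 and 127.7 TPM with a log2 fold change of -0.02, and -0.11 without CBX7 replicate 1. ITGA8 and MMRN1 were at 0 in all 4 libraries.

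BGN, which encodes biglycan, a small proteoglycan that binds tropoelastin, had the highest log2 fold change of the 43. It had 3 and 1 counts in the controls and 23 and 22 in the CBX7 libraries, a log2 fold change of 3.37 ± 0.56 (SE, adjusted p = 0.327, edgeR), and 3.39 without CBX7 replicate 1. At 0.03 to 0.63 TPM BGN was far below MFAP2.

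In 1 pair of libraries the ratios of these genes followed gene length. Among the 38 tested genes of both lists, 8 are longer than 6000 bases, FBN1 and LTBP1 among them. All 8 were lower in CBX7 replicate 1 than in control replicate 1, with log2 ratios from -0.74 to -0.37 and a median of -0.70. In the libraries numbered 2, 3 of the same 8 were lower, with ratios from -0.21 to 0.22 and a median of 0.02. The 12 genes of up to 3000 bases had median ratios of 0.52 and 0.15, and 3 of them were lower in CBX7 replicate 1. Spearman's rho between length and log2 ratio over the 38 genes was -0.575 for the libraries numbered 1 and -0.183 for those numbered 2, genes of the same 4 libraries not being independent of each other. MFAP2, at 1045 bases, lies in the length class with a median of 0.31 in the libraries numbered 1, and its ratios were 2.96 and 2.43. After the correction for gene length LTBP1 was at -0.10, against -0.20 without it, and FBN1 at -0.22, against -0.38.

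**Figure D4:**
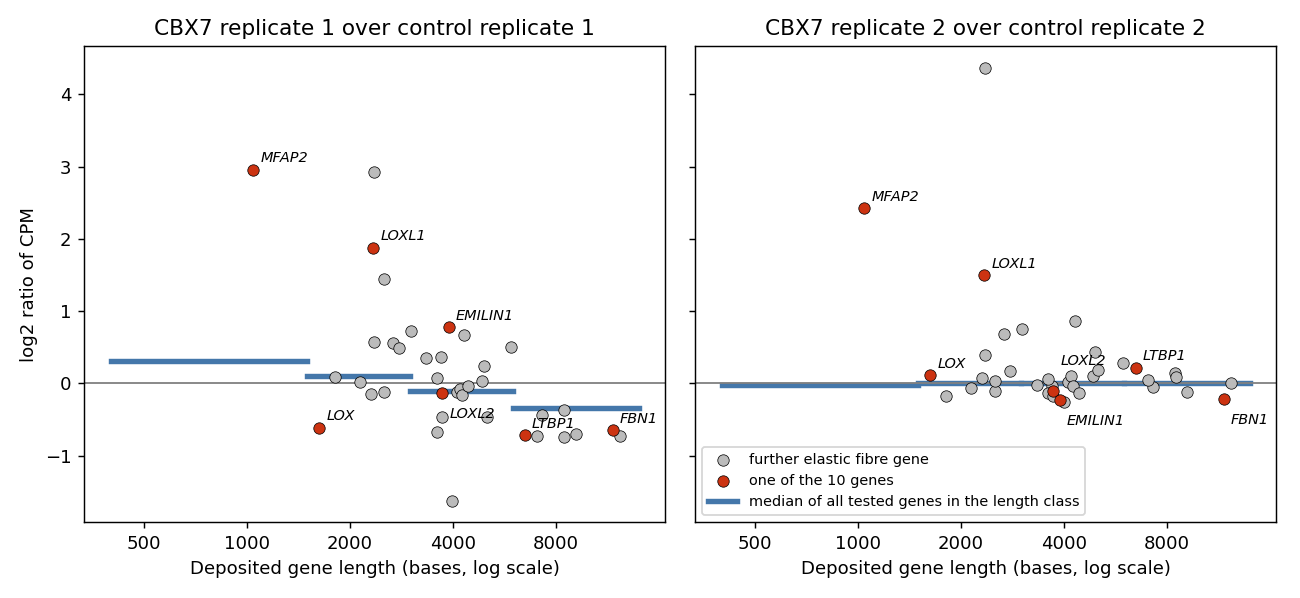
log2 ratio of CPM against deposited gene length (log scale) for the 7 tested genes of the group (red) and 31 further elastic fibre genes (grey), for the libraries numbered 1 (left) and 2 (right). Blue lines are medians of all tested genes in 4 length classes, which fall from 0.31 to -0.34 on the left and stay between -0.02 and 0 on the right, while MFAP2 lies at 2.96 and 2.43.

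Fibroblasts and smooth muscle cells produce elastic fibres in tissue. None of 10 fibroblast markers reached 1 TPM in every library. Their summed level was 2.68 and 2.53 TPM in the controls and 2.44 and 6.78 TPM in the CBX7 libraries. Most of the last came from COL1A1, at 0.88 TPM in CBX7 replicate 1 and 4.4 TPM in CBX7 replicate 2. The counts of COL1A1 were closer, at 87 and 106 in those libraries and 60 and 54 in the controls. In CBX7 replicates 1 and 2 MFAP2 had 10.4 and 7.97 CPM, and the part of such cells in its level was not tested. Of 5 smooth muscle markers 2 reached 1 TPM in every library, TAGLN at 9.93 to 12.55 TPM and ACTA2 at 5.32 to 5.87 TPM, with sums over the list between 16.1 and 18.8 TPM in both groups. The sums of 4 endothelial and 3 blood cell markers did not pass 0.62 TPM.

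Leaving out single libraries moved several of the 10 values. Without CBX7 replicate 2 the log2 fold changes of FBN1, LOX and LOXL1 were -0.85, -0.49 and 1.99, and these 3 and MFAP2 were past the adjusted edgeR threshold in that fit, as were 35.5% of all genes tested. The log2 fold change of MFAP2 ranged from 2.50 to 2.89 over the 4 fits that left out 1 library. These fits reuse the libraries in which the genes were chosen, and their calls are a description.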

How the data were processed

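Total RNA of 4 T24 libraries was sequenced on an Illumina HiSeq instrument, and the authors deposited, for each gene and library, an estimated count (88.2% to 88.9% of values whole), a TPM value and the gene length. The submitters' processing notes name cutadapt 1.9.1, HISAT2 2.0.1, HTSeq 0.6.1, DESeq2 and the build hg19, without roles. HTSeq gives whole counts, so how the estimated counts arose, and the annotation, are not given in the sources used here. The deposited group means and the authors' own fold changes and p-values were not used. Of the gene identifiers, 58516 (96.5%) are in GENCODE release 29 on GRCh38, from which coordinates were taken.

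Counts were rounded, filtered with filterByExpr, scaled by TMM and tested with condition as the only term by the quasi-likelihood test (glmQLFit, glmQLFTest, default form) of edgeR 4.0.16 in R 4.3.3, with Benjamini-Hochberg adjustment over all genes and a threshold of 0.05. Standard errors were obtained by dividing the fold change (log2) by √F. The length correction fits a lowess curve (span 0.3) of each library's deviation on log2 length, as an offset. Libraries of a group differed beyond sampling noise (chi-square per degree of freedom 6.49 and 59.7). Alternatives were DESeq2 1.42.0, its size factors, upper-quartile scaling, the newer quasi-likelihood form, other filters, a replicate block, a length correction and each library left out; for TPM, recomputed values, the pseudocount and the genes ranked. Named were all 10 genes, CBX7, and of 43 further genes those past the threshold, those with at least 1 CPM and a 2-fold change, and the 5 highest in TPM; of each marker list, up to 2 highest and those at 0. Other genes are named for context or their values. Members, lists and tests were chosen with earlier results of these data known.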

Additional observations from a re-analysis of the deposited data

How the results depend on the processing

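Of all genes, 3 passed an adjusted p under 0.05 with TMM, with upper-quartile scaling, with the size factors of DESeq2, the newer quasi-likelihood form and at least 10 counts in every library, and 4 with the length correction. At the same threshold of 0.05 there were 67 by the Wald test of DESeq2 and 265 if no filter was used. At an adjusted p under 0.01 there was 1 in the first fit, which was CBX7 itself. Leaving out 1 library gave 45 to 5491 genes (59 without control replicate 1, 45 without control replicate 2, 397 without CBX7 replicate 1 and 5491 without CBX7 replicate 2). Of the 43 further genes, 0 passed in the first fit, 1 by the Wald test of DESeq2 and 3 unfiltered (BGN, EFEMP1 and ITGB3), and leaving out 1 library gave 0 to 18, with 4 without CBX7 replicate 1 and 18 without CBX7 replicate 2. The cause of these changes was not tested.

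Libraries with the same number deviated together (correlation 0.305 over all genes, 0.613 over those with at least 100 counts), but with 2 pairs and no label that says what the number marks, the numbers were not taken to pair the samples. With the replicate block 361 genes of 14862 and 3 further genes passed, and with the replicate block and length correction 572 and 7.

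The log2 fold change of MFAP2 lay between 2.55 and 2.71 in 9 alternatives. Unlike in the first fit, its adjusted p was under 0.05 in 5 of them (the Wald test, no filter, the length correction, the replicate block, and block with length correction) and in 4 of 4 fits that left out a library, which is no support, as the gene was chosen for this difference. LOXL1 lay between 1.64 and 1.71 in 8, LOXL2 between -0.12 and -0.0816, FBN1 between -0.42 and -0.22, LOX between -0.35 and -0.24, LTBP1 between -0.23 and -0.10 and EMILIN1 between 0.30 and 0.36 in 9. Without CBX7 replicate 1, LTBP1 turned to 0.16 and EMILIN1 to -0.0689, and on the log2(TPM + 1) scale the difference of FBN1 turned to 0.0142 and that of LOX to 0.118. Without CBX7 replicate 2 these 4 values were -0.65, 0.61, -0.608 and -0.642. On the log2(TPM + 1) scale the difference of LOXL1 was 0.86 with the deposited TPM and 0.457 with TPM recomputed from counts and deposited length, and with a pseudocount of 0.1 it was 1.95. MFAP5, FBN2 and ELN are limited by depth, with at most 10 counts in a group.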
